A study of Arabidopsis thaliana with 29 samples.

Results

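JAZ1 to JAZ10 are the jasmonate-ZIM domain repressors of Arabidopsis. These 10 genes were chosen by locus ID from the 33559 genes of the deposited expression table, and each of the 10 was found in it. They are JAZ1 (AT1G19180), JAZ2 (AT1G74950), JAZ3 (AT3G17860), JAZ4 (AT1G48500), JAZ5 (AT1G17380), JAZ6 (AT1G72450), JAZ7 (AT2G34600), JAZ8 (AT1G30135), JAZ9 (AT1G70700) and JAZ10 (AT5G13220). RNA was sequenced from leaves of 3-week-old Col-0 plants that had been sprayed with 10 μM of the hormone abscisic acid (ABA), 10 μM AMF1β (AMF1 in the labels), 10 μM AMF4 or the solvent DMSO. AMF1β and AMF4 are derivatives of the ABA receptor agonist AM1 that carry fluorine atoms on its benzyl ring and differ in the number of these atoms. At 6 h post treatment, ABA, AMF1β, AMF4 and DMSO had 3 libraries each. At 24 h, ABA and AMF1β had 3 libraries each, AMF4 had 2 and DMSO had 3. At 72 h, ABA had 1 library, AMF1β and AMF4 had 2 each and DMSO had 1. The labels name no transgene or mutation in any group. The study's methods describe the RNA-seq samples as biological replicates in duplicate. Neither they nor the labels say what the up to 3 libraries of a group have in common, such as plants or a spray, so a p-value reflects how these libraries scatter.

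Values are FPKM, fragment counts scaled for transcript length and for the mapped fragments of the library, so that levels can be compared between genes. Groups were compared by limma on log2(FPKM + 1), on which changes of genes with low FPKM come out too small. The fit covered 18521 genes, those that reached 1 FPKM in 2 libraries or more. A gene was called when its adjusted p was under 0.05 and its fold change above 2 or below 0.5. Of the 10 JAZ genes, 8 passed the filter on low values and were tested. JAZ4 and JAZ8 reached 1 FPKM in 1 library each and are described by level only. For the single ABA and DMSO libraries of 72 h the model takes the spread of the other groups.

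JAZ proteins hold a ZIM domain, through which most of them reach the adaptor NINJA and the co-repressor TOPLESS. They also hold a Jas motif, through which they bind MYC2 and related transcription factors and keep them inactive. The bioactive hormone jasmonoyl-isoleucine joins most JAZ proteins to the F-box protein COI1, and the JAZ protein is then degraded. MYC factors that are set free activate wound and defence genes, and they also activate the JAZ genes themselves, so that JAZ transcripts are widely used as a readout of jasmonate signalling in leaves. Transcript levels do not measure JAZ protein, which is controlled by degradation.

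By RefSeq TAIR10.1, the genes for JAZ1 (chr1:6621777-6623668), JAZ4 (chr1:17931390-17934662), JAZ8 (chr1:10596352-10597341) and JAZ9 (chr1:26654529-26657350) lie on the plus strand of chromosome 1, and those for JAZ2 (chr1:28148574-28150446), JAZ5 (chr1:5955155-5957511) and JAZ6 (chr1:27273968-27276562) on its minus strand. JAZ7 (chr2:14573030-14573952), JAZ3 (chr3:6119707-6123044) and JAZ10 (chr5:4218786-4221077) lie on plus strands of chromosomes 2, 3 and 5. Their longest annotated transcripts hold from 2 exons in JAZ7 to 8 in JAZ9.

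MYC factors bind the G-box, CACGTG, and JAZ promoters are known for it. The letters CACGTG, which read the same on both strands, were searched in the 500 bases upstream of each annotated gene start in RefSeq TAIR10.1. The deposited table carries no coordinates, and genes were matched by locus ID. CACGTG was found in this window of 6 of the 10 JAZ genes, against 9.35% of 27443 protein-coding genes. The windows below show each copy with its flanks, 5′ to 3′ along the gene's strand, with CACGTG in capitals, because CACGTG is the core that MYC2 is known to bind.
JAZ2, chr1:28150495-28150524, minus strand: attaaattaaaaCACGTGttttaaatgtct
JAZ3, chr3:6119555-6119584, plus strand: gttaaaatagcgCACGTGcctcgccacgcg
JAZ3, chr3:6119613-6119642, plus strand: tgcacgacgatgCACGTGcctttttaaccg
JAZ6, chr1:27277023-27277052, minus strand: ataacaatacttCACGTGtccttaaacttt
JAZ7, chr2:14572984-14573013, plus strand: aaaagcattttaCACGTGcgtgaagagaaa
JAZ8, chr1:10596322-10596351, plus strand: gtgtggaaaaaaacattttcCACGTGagag
JAZ9, chr1:26654151-26654180, plus strand: attcaaaaatttCACGTGttatgaaatgag
The copy began 10 bases before the start of JAZ8, 34 before JAZ7, 66 before JAZ2, 366 before JAZ9 and 478 before JAZ6, and the pair of copies in JAZ3 began 140 and 82 bases before its start. A core of the ABA-responsive element, ACGTGTC on either strand, was found in JAZ6 alone, where it overlaps the G-box, against 5.36% of the 27443 genes. A second core, ACGTGGC, was found in 0 of the 10 JAZ genes, against 4.72% of all genes. JAZ1, JAZ4, JAZ5 and JAZ10 had no CACGTG in this window, which says only that these letters were not found there. The windows of JAZ6 and JAZ10 overlap other annotated genes, AT1G09307 and AT5G02045.

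The library totals of FPKM ran from 763464 to 1140081, and the table holds no read totals. The sequencing depth of a library relative to the median library, as estimated from how low FPKM values step, was between 0.459 and 1.90. AMF4 6 h replicate 1 listed 21835 genes at 1 FPKM or more, against 16265 to 16872 in the other 28 libraries. The 8 leaf mesophyll markers were present in every library, with a summed level of 20117 FPKM or more. The 4 root markers summed to 4.06 FPKM in AMF4 6 h replicate 1 and to at most 1.23 in the others, and the 3 shoot meristem markers to 3.43 in that library and to at most 0.0898 in the others. In bulk leaf RNA, fewer cells of a type and less RNA per cell cannot be told apart.

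JAZ9, which also binds DELLA repressors of gibberellin signalling, was the most abundant member in these leaves. Its FPKM had a median of 153.6 over the 29 libraries, with a range of 47.7 to 307.2, and its median share of the summed JAZ level was 51.2%. JAZ6 followed with a median of 48.1 FPKM and a range of 29.2 to 113.9. JAZ1, the member on which hormone-driven degradation was first worked out, and its close paralogue JAZ2, which acts in stomatal responses to coronatine, had medians of 33.0 and 32.8 FPKM and overlapping ranges, so their order is not set. JAZ3, known from the dominant jai3-1 mutant, had a median of 25.9 FPKM.

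The other members were low. JAZ5, the close paralogue of JAZ6, had a median of 3.59 FPKM, with a range of 0.913 to 8.04. JAZ7 had a median of 1.61 FPKM and JAZ10 one of 1.504, with overlapping ranges. JAZ7 and JAZ8 carry an EAR motif that recruits TOPLESS directly, and JAZ10 gives rise to spliced forms that resist degradation. JAZ10 had its highest value, 11.9 FPKM, in ABA 6 h replicate 1 and its lowest, 0.235 FPKM, in the DMSO library of 72 h. Among the 10 groups of 2 or 3 libraries, the highest group mean was 7.66 times the lowest for JAZ10, 4.14 times for JAZ7 and 1.55 times for JAZ3. With the single libraries of 72 h included these ratios were 27.0, 21.2 and 2.11, and for JAZ10 and JAZ7 the lowest was then the DMSO library of 72 h, at 0.235 and 0.131 FPKM. The highest JAZ10 mean, 6.34 FPKM with ABA at 6 h, rests largely on replicate 1. The gene-level values do not separate the 7 annotated JAZ10 transcripts, and its locus overlaps the antisense gene AT5G02045. Whether the counting used strand is not given in the sources used here, so reads of that overlap cannot be told apart.

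JAZ4 and JAZ8, which have both been tied to leaf senescence, stayed near the limit of these data. JAZ4 had a median of 0.319 FPKM and was listed at 0 in 1 library, and JAZ8 had a median of 0.245 FPKM and was listed at 0 in 8 libraries. At 24 h JAZ8 had 0, 0.217 and 0 FPKM with ABA, 0, 0.235 and 0 with AMF1β, and 0 and 0.183 with AMF4, against 0.445, 0.521 and 0.377 with DMSO. The 8 treated libraries of 24 h were thus all below the 3 DMSO libraries, at levels where a few fragments decide the value and no test was made.

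**Figure D1:**
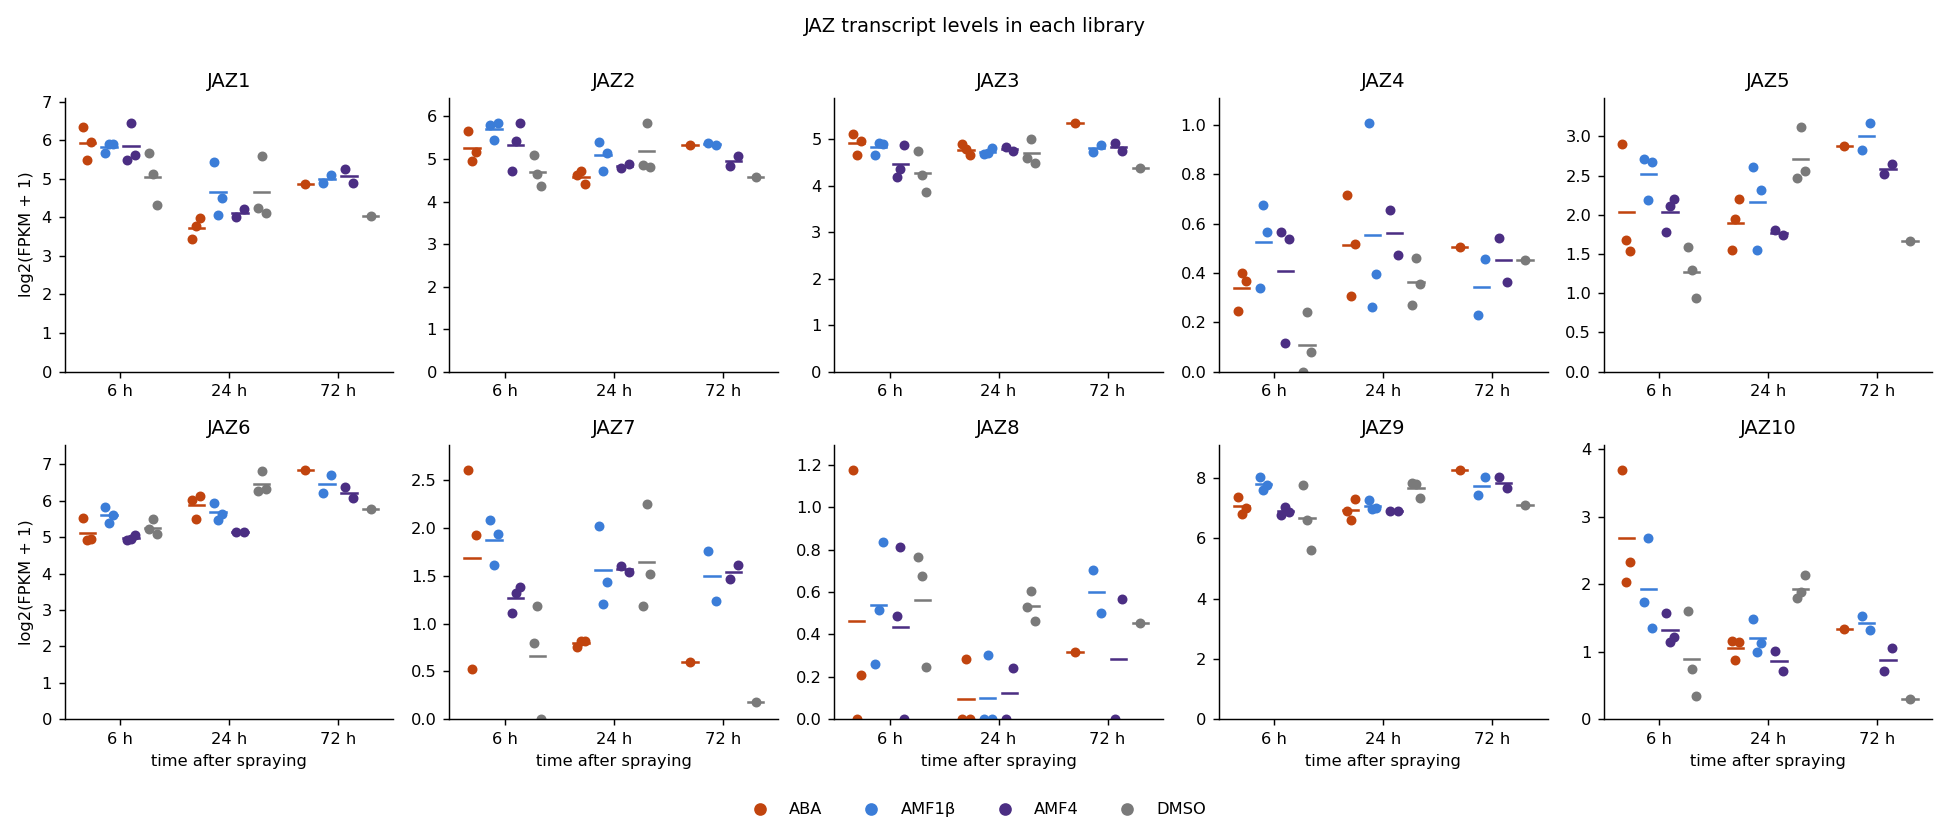
FPKM of JAZ1 to JAZ10 as log2(FPKM + 1) on the vertical axis, by time after spraying on the horizontal axis, with ABA, AMF1β, AMF4 and DMSO from left to right at each time. Points are libraries and bars are group means. The vertical scale differs between panels. At 24 h the treated libraries of JAZ6, JAZ9 and JAZ10 all lie below the 3 DMSO libraries, and at 6 h the DMSO libraries of JAZ9 are spread from 47.7 to 217.9 FPKM.

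At 6 h post treatment, 4 JAZ genes were higher with AMF1β and 1 with ABA, and none was called with AMF4. Over the 8 tested members the median log2 fold change against DMSO was 1.01 with AMF1β, 0.70 with ABA and 0.51 with AMF4, beside medians over all 18521 genes of 0.05, 0.01 and 0.09. These comparisons share the DMSO libraries. The 4 genes higher with AMF1β stand beside 2.69% of all tested genes called higher, the 1 gene with ABA beside 3.71%, and the 0 genes with AMF4 beside 4.21%. None of the 8 was called lower, beside 3.24% of all genes with ABA, 3.28% with AMF1β and 4.35% with AMF4. With AMF4, 3 of the 8 had an unadjusted p under 0.05, beside 40.9% of all genes.

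JAZ10, a brake on the jasmonate response, was the gene called with ABA. It had 11.9, 3.09 and 4.04 FPKM with ABA, 2.32, 5.45 and 1.55 with AMF1β, and 1.98, 1.22 and 1.33 with AMF4, against 2.04, 0.680 and 0.266 with DMSO. The ABA libraries all lay above the DMSO libraries, and the AMF1β and AMF4 libraries overlapped them. The log2 fold change was 1.79 with ABA (SE 0.36, limma adjusted p = 0.00135), 1.03 with AMF1β (SE 0.36, adjusted p = 0.04998) and 0.42 with AMF4 (SE 0.36, adjusted p = 0.401). The call with ABA was kept under all 16 alternatives, with adjusted p from 0.000582 to 0.0243. The AMF1β call stood at the threshold and was lost under each of 10 alternatives, among them median-of-ratios scaling (adjusted p = 0.0519) and leaving out AMF1β 6 h replicate 2 (log2 fold change 0.64, adjusted p = 0.254), DMSO 6 h replicate 3 (0.75, 0.211), DMSO 6 h replicate 2 (0.95, 0.129) or AMF1β 6 h replicate 1 (1.12, 0.0840).

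JAZ5, which acts together with JAZ10 in limiting responses to coronatine, was higher with AMF1β. It had 5.53, 3.56 and 5.35 FPKM with AMF1β, 6.47, 2.19 and 1.91 with ABA, and 2.44, 3.34 and 3.60 with AMF4, against 2.01, 1.46 and 0.913 with DMSO. The AMF1β and AMF4 libraries all lay above the DMSO libraries, and the ABA libraries overlapped them. The log2 fold change was 1.25 with AMF1β (SE 0.31, limma adjusted p = 0.00683), 0.77 with ABA (adjusted p = 0.0847) and 0.76 with AMF4 (adjusted p = 0.0673). The call with AMF1β was kept under all 16 alternatives, with adjusted p from 0.00479 to 0.0392.

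JAZ9 and JAZ7 were the other members called with AMF1β. JAZ9 had 262.4, 195.8 and 219.5 FPKM with AMF1β, 165.8, 112.5 and 126.7 with ABA, and 109.6, 130.3 and 116.4 with AMF4, against 217.9, 96.3 and 47.7 with DMSO. DMSO 6 h replicate 1 lay within the AMF1β range, and the log2 fold change with AMF1β was 1.15 (SE 0.34, limma adjusted p = 0.0198). Without DMSO 6 h replicate 3 it was 0.63 (adjusted p = 0.141), and the call was also lost without DMSO 6 h replicate 2 (1.12, 0.0569) or AMF1β 6 h replicate 1 (1.04, 0.0852).

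JAZ7 had 3.24, 2.05 and 2.83 FPKM with AMF1β, 5.10, 0.437 and 2.80 with ABA, and 1.16, 1.50 and 1.61 with AMF4, against 0.736, 1.28 and 0 with DMSO. The AMF1β libraries all lay above the DMSO libraries, of which replicate 3 is listed at 0. The log2 fold change with AMF1β was 1.22 (SE 0.38, limma adjusted p = 0.0288). It was 0.89 without DMSO 6 h replicate 3 (adjusted p = 0.149), 1.11 without AMF1β 6 h replicate 1 (0.104) and 1.19 without AMF1β 6 h replicate 3 (0.0744).

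JAZ1, JAZ2, JAZ3 and JAZ6 were not called at 6 h. JAZ2 with AMF1β came closest, with 54.5, 42.7 and 56.8 FPKM against 33.0, 24.1 and 19.6 with DMSO, which gave 1.00 on the log2 scale (adjusted p = 0.0161) and did not pass the fold threshold. JAZ3 with ABA had a log2 fold change of 0.64 (adjusted p = 0.0236), also short of that threshold. JAZ1 had 79.9, 43.9 and 61.1 FPKM with ABA, 50.2, 58.4 and 58.8 with AMF1β, and 44.1, 86.7 and 47.6 with AMF4, against 50.2, 33.7 and 19.1 with DMSO, and its log2 fold changes were 0.89, 0.78 and 0.81 for these 3 compounds (adjusted p = 0.112, 0.162 and 0.117). JAZ6 had values on both sides of 0, its log2 fold change being -0.14 for ABA, 0.35 for AMF1β and -0.28 for AMF4. Of the 8 tested genes, 4 with AMF1β, 1 with ABA and 1 with AMF4 had all treated libraries above all DMSO libraries, beside 23.4%, 19.8% and 19.8% of all tested genes. The 4 with AMF1β were JAZ1, JAZ2, JAZ5 and JAZ7. JAZ1 was barely apart, its lowest AMF1β library having 50.188 FPKM and its highest DMSO library 50.167. JAZ6 with AMF4 was the one with all libraries below, beside 14.6%.

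The DMSO libraries of 6 h differed among themselves. The summed level of the 10 JAZ genes was 368.7, 220.1 and 134.4 FPKM in DMSO replicates 1, 2 and 3. Each of JAZ1, JAZ2, JAZ3, JAZ5, JAZ9 and JAZ10 was highest in replicate 1 and lowest in replicate 3. LHY, a clock gene that peaks in the morning, had 0.433 to 0.983 FPKM in the 9 treated libraries of 6 h, against 27.9, 10.6 and 0.436 FPKM in DMSO replicates 1, 2 and 3. It was called lower with ABA, AMF1β and AMF4 at this time, the log2 fold changes being -2.32, -2.25 and -2.15. The part of this difference in the JAZ results was not tested. A fit without DMSO replicates 1 and 2 was added once the data had been seen. It leaves replicate 3, the library with the lowest JAZ sum of all 29, as the only DMSO library of 6 h, with its spread taken from the other groups. With that library as the only control the JAZ differences from DMSO at 6 h come out higher by construction. Its counts of called genes are therefore not used. Leaving out single libraries, the count with AMF1β was 1 without AMF1β 6 h replicate 1 or DMSO 6 h replicate 3, and 2 without DMSO 6 h replicate 2. The count with ABA was 2 without ABA 6 h replicate 2 or 3 or DMSO 6 h replicate 2.

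At 24 h post treatment the differences from DMSO lay on the other side. The median log2 fold change of the 8 tested members was -0.77 with ABA, -0.32 with AMF1β and -0.64 with AMF4, beside medians over all genes of -0.02, -0.01 and -0.01. JAZ6 was the one member called, lower with AMF4. The 1 gene stands beside 2.36% of all tested genes called lower with AMF4, and the 0 genes called with ABA and AMF1β beside 0.491% and 0.794%. None was called higher, beside 0.232% of all genes with ABA, 1.05% with AMF1β and 2.12% with AMF4. An unadjusted p under 0.05 was found for 7 of the 8 with ABA, 1 with AMF1β and 3 with AMF4, beside 13.9%, 22.1% and 22.5% of all tested genes.

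JAZ6 had 34.2 and 34.3 FPKM with AMF4, 64.3, 43.9 and 68.9 with ABA, and 60.8, 43.4 and 49.0 with AMF1β, against 76.6, 112.7 and 78.6 with DMSO. The part of the G-box letters and the ABA-responsive core in its upstream window was not tested. All 8 treated libraries lay below the 3 DMSO libraries, the AMF4 libraries lowest. The log2 fold change was -1.34 with AMF4 (SE 0.23, limma adjusted p = 0.000852), -0.79 with AMF1β (SE 0.20, adjusted p = 0.0307, short of the fold threshold) and -0.59 with ABA (SE 0.20, adjusted p = 0.172). The call with AMF4 was kept under all 14 alternatives, with log2 fold changes from -1.43 to -1.16 when 1 library was left out.

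JAZ9 and JAZ10 lay below DMSO in the same way but were not called. JAZ9 had 118.8, 97.2 and 158.4 FPKM with ABA, 153.6, 125.3 and 128.6 with AMF1β, and 119.1 and 119.9 with AMF4, against 227.1, 222.4 and 161.9 with DMSO. JAZ10 had 1.23, 0.845 and 1.201 FPKM with ABA, 1.79, 1.00 and 1.19 with AMF1β, and 1.01 and 0.644 with AMF4, against 2.45, 2.69 and 3.38 with DMSO. No treated library of either gene reached the lowest DMSO library. The log2 fold changes of JAZ10 were -0.88, -0.73 and -1.07 with ABA, AMF1β and AMF4 (limma adjusted p = 0.273, 0.240 and 0.105).

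Of the 8 tested genes, 7 with ABA had all libraries below all DMSO libraries, JAZ3 being the exception, beside 9.55% of all tested genes. With AMF1β these were JAZ6, JAZ9 and JAZ10, beside 11.2%. With AMF4 they were JAZ5, JAZ6, JAZ9 and JAZ10, beside 20.7%. JAZ3 had log2 fold changes near 0, at 0.08, 0.03 and 0.09 for ABA, AMF1β and AMF4, with 95% intervals within -0.37 and 0.54. JAZ1 showed the spread of single libraries at this time, with 42.1 FPKM in AMF1β replicate 1 and 46.9 in DMSO replicate 2 and 9.83 to 21.8 in the other 9 libraries. The touch- and wound-induced genes, a list of 9 that includes TCH3, TCH4 and ZAT10, summed to 86.6 to 117.0 FPKM with ABA, 161.4 to 324.5 with AMF1β and 126.4 to 150.2 with AMF4, against 163.4 to 239.0 with DMSO, all 9 detected in each group. Of these 9, TCH3 was called lower with ABA at 6 h (-1.59), TCH4 higher with AMF4 at 24 h (2.43) and ZAT12 higher with AMF4 at 72 h (1.73), as log2 fold changes. The 3 guard cell markers were GC1, FAMA and MYB60. They summed to 29.97 to 40.3 FPKM with ABA, 17.7 to 25.3 with AMF1β and 9.71 to 10.3 with AMF4, against 57.4 to 83.4 with DMSO, none at 0. At 6 h they summed to 14.9 to 21.6 with ABA, 21.3 to 35.7 with AMF1β and 17.5 to 27.0 with AMF4, against 110.2 to 137.8 with DMSO. The paper lists MYB60 among ABA- and stress-responsive genes whose strong induction lasted to 72 h with AMF4 but not ABA. The marker sum, which does not give MYB60 alone, was 37.2 to 37.3 FPKM with AMF4 at 72 h. It was 69.8 in the single DMSO library of that time. A response of the markers to the compounds and a change in guard cell content cannot be told apart in these sums. The part of guard cells and of handling in the JAZ results was not tested.

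At 72 h the JAZ genes were again above DMSO in value, and none was called. The median log2 fold change was 1.01 (ABA), 0.86 (AMF1β) and 0.65 (AMF4), beside medians over all genes of 0.018, -0.024 and -0.005. All 8 were above 0 with each compound, beside 52.6%, 45.4% and 48.5% of all genes. These comparisons rest on 1 DMSO library, which all of them share and which held the lowest JAZ2, JAZ7 and JAZ10 group levels. JAZ6 had 113.9 FPKM with ABA, 73.9 and 103.5 with AMF1β, and 81.5 and 66.6 with AMF4, against 53.3 with DMSO. JAZ5 had 6.34 FPKM with ABA, 6.10 and 8.04 with AMF1β, and 4.73 and 5.27 with AMF4, against 2.18 with DMSO. Its log2 fold change with AMF1β, 1.33 (95% interval 0.38 to 2.28, limma adjusted p = 0.809), shows how wide the estimates are. Over all tested genes 0% were called with ABA, 0.0108% with AMF1β and 1.55% with AMF4. By unadjusted p under 0.05 there were 3, 4 and 1 of the 8 JAZ genes, beside 1.82%, 4.12% and 14.0% of all genes. With DMSO of both later times pooled as control, the counts of called JAZ genes were also 0.

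**Figure D2:**
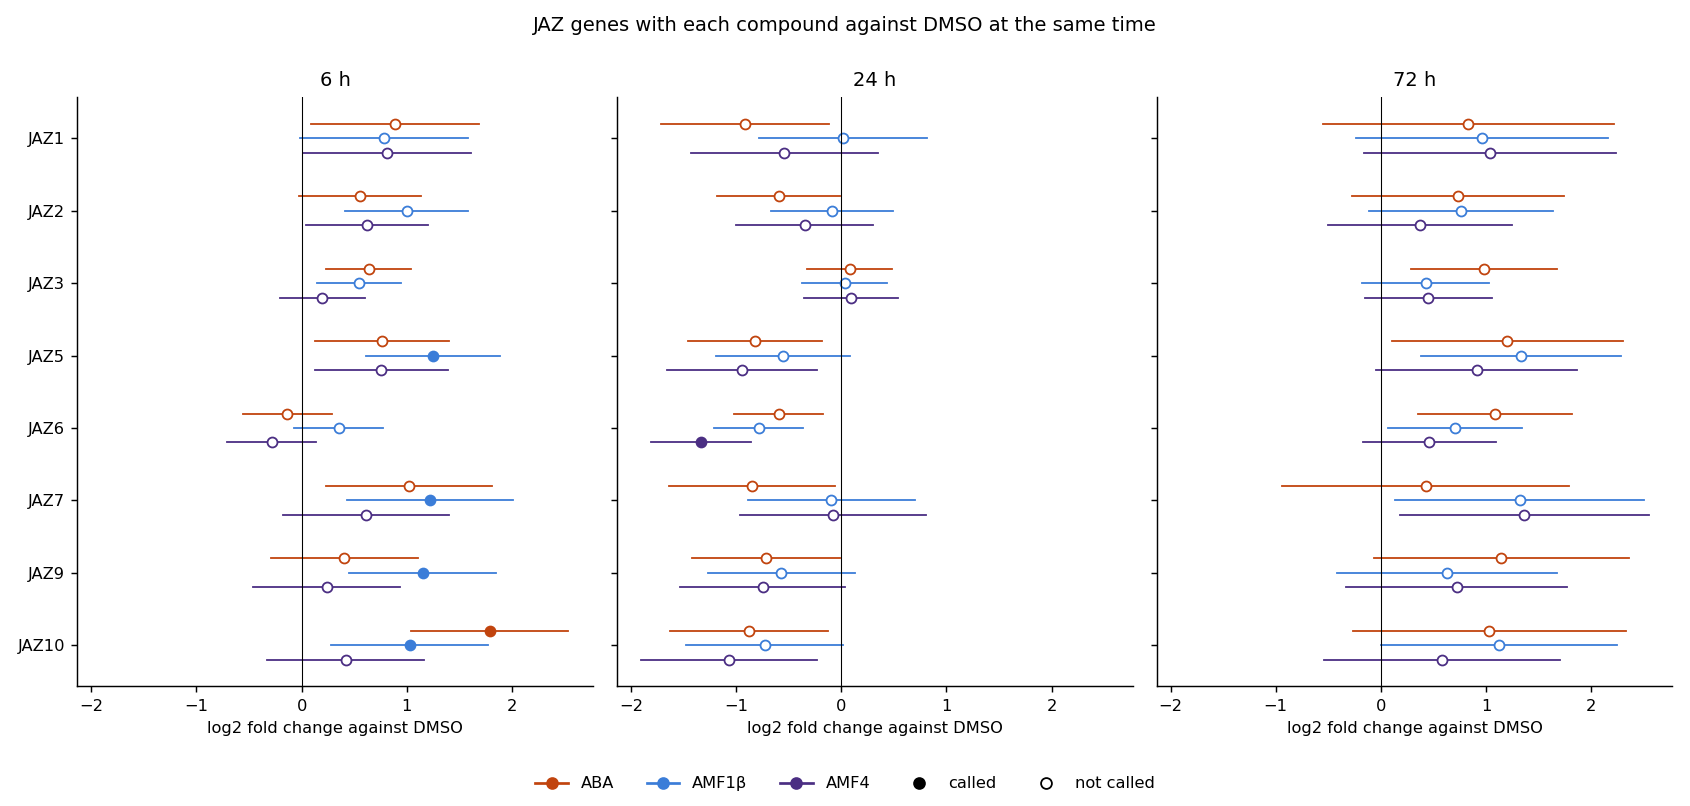
Log2 fold change of the 8 tested JAZ genes against DMSO at 6, 24 and 72 h on the horizontal axis, with ABA, AMF1β and AMF4 from top to bottom for each gene. Points are limma estimates on log2(FPKM + 1), lines are 95% intervals, and filled points passed both thresholds. Filled points are JAZ10 with ABA and JAZ5, JAZ7, JAZ9 and JAZ10 with AMF1β at 6 h, and JAZ6 with AMF4 at 24 h.

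The compounds were compared with each other at the same dose of 10 μM in 9 comparisons, AMF1β and AMF4 with ABA and AMF4 with AMF1β at each time. None of the 8 tested JAZ genes was called in any of them. The shares of all genes called in either direction were 0.367%, 1.45% and 0% for AMF1β against ABA at 6, 24 and 72 h, and 0.508%, 2.13% and 0.626% for AMF4 against ABA. They were 0%, 0% and 0.054% for AMF4 against AMF1β. The JAZ genes with an unadjusted p under 0.05 numbered 3, 1 and 0 for AMF1β against ABA, 2, 1 and 0 for AMF4 against ABA, and 2, 1 and 0 for AMF4 against AMF1β. The shares of all genes under that p at 6, 24 and 72 h were 11.2%, 19.3% and 3.30%, 20.4%, 15.8% and 14.5%, and 7.33%, 6.34% and 11.8% for these comparisons in the same order.

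The widest separation was that of JAZ10 at 6 h, with AMF4 below ABA. The log2 difference was -1.37 (95% interval -2.12 to -0.62, limma adjusted p = 0.0528), and all AMF4 libraries, at most 1.98 FPKM, lay below all ABA libraries, at least 3.09 FPKM. In this comparison the share of all genes without overlap was not computed, so the separation does not set JAZ10 apart from other genes. One JAZ gene was called in this comparison after median-of-ratios scaling, after quantile normalization and without ABA 6 h replicate 2. JAZ6 at 24 h had a log2 difference of -0.74 between AMF4 and ABA (95% interval -1.22 to -0.27, adjusted p = 0.0760).

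AMF4 and AMF1β, which differ in their fluorine atoms, did not differ past the threshold for any JAZ gene. At 6 h the log2 difference of AMF4 from AMF1β was -0.91 for JAZ9 (95% interval -1.61 to -0.22, limma adjusted p = 0.654) and -0.64 for JAZ6 (-1.06 to -0.21, 0.654). For JAZ1 it was 0.03, with an interval of -0.77 to 0.82. The AMF4 libraries of JAZ6, JAZ7 and JAZ9 lay below all AMF1β libraries at 6 h. The share of all genes separated in this way was not computed between compounds, so the separation does not set these members apart from other genes. Of all tested genes, 0% were called in either direction for AMF4 against AMF1β at 6 h. At 24 h the difference was -0.55 for JAZ6 (-1.02 to -0.08, adjusted p = 0.698). Intervals of this width hold changes in either direction for most members, so they do not show that both compounds act alike.

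Within treatments, 24 h was compared with 6 h. With DMSO, JAZ5, JAZ6 and JAZ10 were higher at 24 h than at 6 h, 3 of the 8 tested, beside 7.9% of all genes called higher. JAZ5 had 4.55, 7.68 and 4.87 FPKM at 24 h with DMSO, against 2.01, 1.46 and 0.913 at 6 h, which is 1.44 on the log2 scale (SE 0.31, limma adjusted p = 0.000863). JAZ6 had 76.6, 112.7 and 78.6 FPKM at 24 h, against 36.3, 43.9 and 33.0 at 6 h, which is 1.21 on that scale (SE 0.20, adjusted p = 8.84e-05). For JAZ10 it was 1.04 (SE 0.36, adjusted p = 0.0274). The JAZ10 call was lost without DMSO 6 h replicate 2 (0.96, adjusted p = 0.0787), DMSO 6 h replicate 3 (0.76, 0.144), DMSO 24 h replicate 2 (1.06, 0.0602) or DMSO 24 h replicate 3 (0.94, 0.0770). JAZ1, JAZ2, JAZ3, JAZ7 and JAZ9 were not called.

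With the compounds, JAZ1 was lower at 24 h than at 6 h each time. With ABA it had 9.83, 12.7 and 14.8 FPKM at 24 h, against 79.9, 43.9 and 61.1 at 6 h, which is -2.20 on the log2 scale (SE 0.38, limma adjusted p = 0.000134). It was -1.74 with AMF4 (SE 0.43, adjusted p = 0.00375) and -1.16 with AMF1β (SE 0.38, adjusted p = 0.0272), and with DMSO it was -0.39 (adjusted p = 0.445). The AMF1β call was lost when AMF1β 6 h replicate 2 or 3 or AMF1β 24 h replicate 2 or 3 was left out, with log2 fold changes of -1.13, -1.12, -0.86 and -1.08. JAZ10 was also lower at 24 h with ABA (log2 fold change -1.63, SE 0.36, adjusted p = 0.00140). The JAZ10 and JAZ1 calls with ABA stand beside 6.89% of all genes, and JAZ1 with AMF4 and AMF1β beside 7.62% and 5.7%. Time after spraying cannot be told apart from the hour and day of collection. LHY and CCA1, the clock genes, summed to 251.2 FPKM or more in every library of 24 and 72 h, against 2.68 to 53.0 FPKM with DMSO at 6 h.

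From 24 to 72 h, JAZ6 with AMF4 was the only call in the 4 treatments, at 81.5 and 66.6 FPKM at 72 h against 34.2 and 34.3 at 24 h. The log2 fold change was 1.08 (SE 0.25, limma adjusted p = 0.0128), beside 2.31% of all genes called higher. Of all genes 3.68% were called in either direction with AMF4, 0.702% with AMF1β, 0.0324% with ABA and 0.0162% with DMSO between these times. The JAZ6 call was lost without AMF4 24 h replicate 1 (1.08), AMF4 24 h replicate 2 (1.09) or AMF4 72 h replicate 1 (0.94).

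The difference from DMSO at 24 h minus that at 6 h was tested in the same model. All 8 tested JAZ genes were below 0 with each compound, and the medians were -1.37 for ABA, -1.22 for AMF1β and -1.02 for AMF4, beside medians over all genes of -0.05, -0.07 and -0.11. The 6 h and 24 h DMSO libraries are shared by the 3 interactions. JAZ1, JAZ5, JAZ7 and JAZ10 were called with ABA, 4 genes beside 2.99% of all genes called lower. JAZ5 and JAZ6 were called with AMF1β, beside 0.4%, and with AMF4, beside 2.81%.

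JAZ10 with ABA had the interaction of largest size, -2.66 (SE 0.51, limma adjusted p = 0.00372), and the only one of these 8 calls kept under every alternative, with adjusted p from 0.00143 to 0.0132. JAZ5 had -1.58 with ABA, -1.80 with AMF1β and -1.70 with AMF4 (adjusted p = 0.0273, 0.0385 and 0.0258). These calls were lost without 5 of 12, 9 of 12 and 4 of 11 single libraries. JAZ6 had -1.14 with AMF1β and -1.05 with AMF4 (adjusted p = 0.0473 and 0.0368), lost without 11 of 12 and 7 of 11 single libraries. JAZ1 and JAZ7 had -1.80 and -1.87 with ABA (adjusted p = 0.0440 and 0.0343), lost without 8 and 7 of 12. Out of 4 with ABA, 1 gene was called without ABA 6 h replicate 1, ABA 24 h replicate 1, DMSO 6 h replicate 3 or DMSO 24 h replicate 2, and 2 without ABA 6 h replicate 3, ABA 24 h replicate 2 or 3, or DMSO 6 h replicate 2. Out of 2 with AMF1β, 3 were called without DMSO 6 h replicate 1 or DMSO 24 h replicate 3, 1 without AMF1β 24 h replicate 3 and 0 without any of the other 9 libraries. Out of 2 with AMF4, 0 were called without AMF4 24 h replicate 1 or 2, DMSO 6 h replicate 3 or DMSO 24 h replicate 2, and 1 without AMF4 6 h replicate 2 or 3. For the difference at 72 h minus that at 24 h the 8 JAZ genes were all above 0 with each compound, none was called, and 7, 3 and 5 had an unadjusted p under 0.05 for ABA, AMF1β and AMF4, beside 2.02%, 3.67% and 9.12% of all genes. These values rest on the single DMSO library of 72 h, which the compounds share. Of all genes 0% were called with ABA, 0% with AMF1β and 0.0918% with AMF4.

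**Figure D3:**
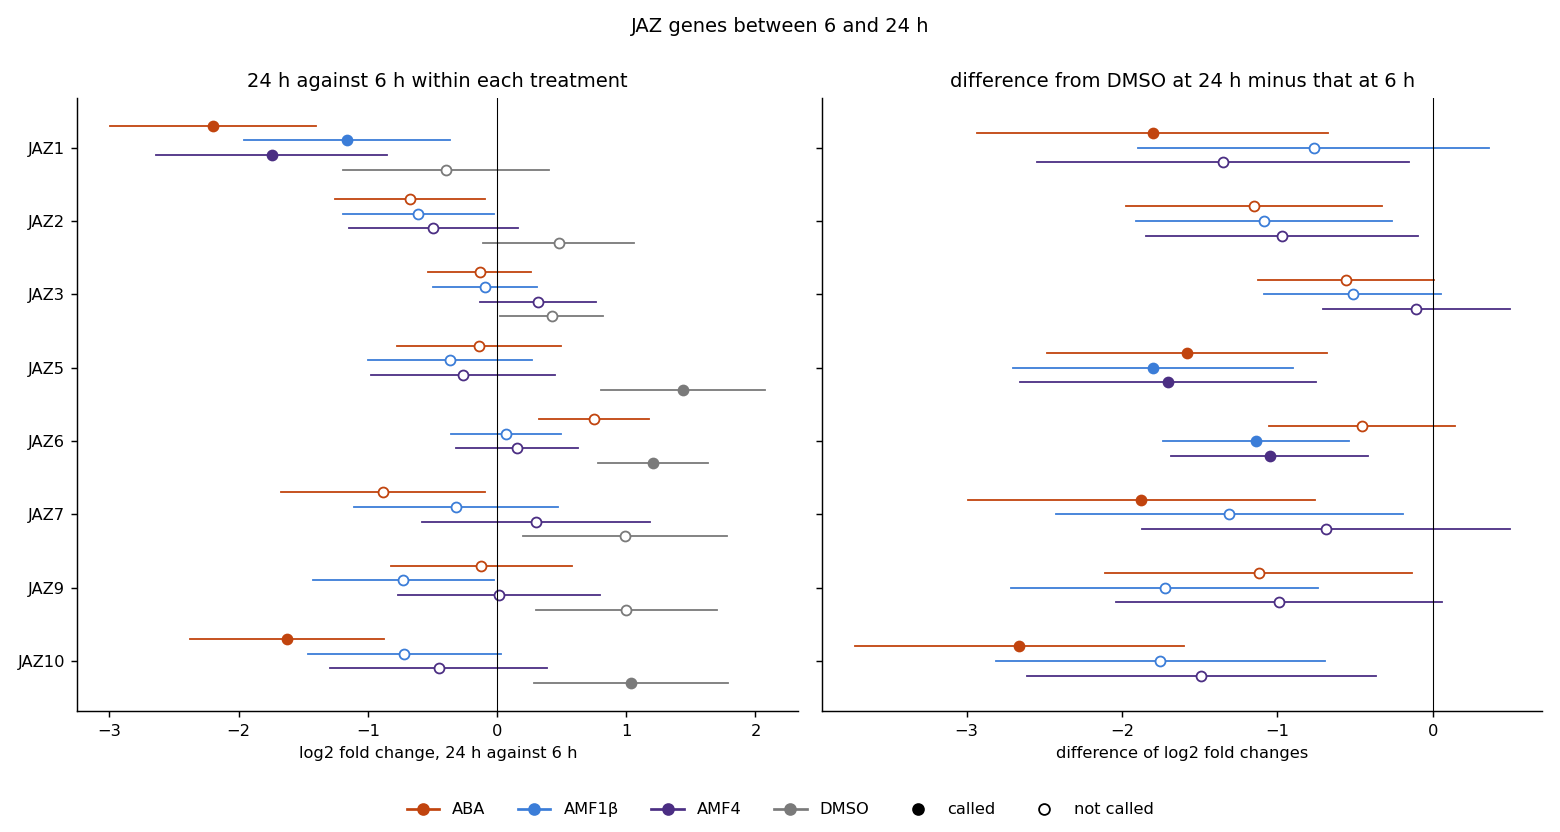
Left, log2 fold change of the 8 tested JAZ genes at 24 h against 6 h within ABA, AMF1β, AMF4 and DMSO. Right, the difference from DMSO at 24 h minus that at 6 h with ABA, AMF1β and AMF4. Points are limma estimates, lines 95% intervals and filled points passed both thresholds. JAZ5 and JAZ6 were higher with time in DMSO, JAZ1 was lower with time in each compound, and all points on the right lie below 0.

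Of 6 TIFY relatives outside the 10 members, 2 were called against DMSO. JAZ11 was higher with ABA at 6 h (log2 fold change 1.38, SE 0.18, limma adjusted p = 1.89e-05) and JAZ13 lower with AMF4 at 24 h (-1.22, SE 0.28, adjusted p = 0.00820). JAZ12, the growth repressors PPD1 and PPD2, and TIFY8 were called in no comparison with DMSO. Of the 4 genes of perception and repression, the receptor COI1, the adaptor NINJA, the co-repressor TPL and the Mediator subunit MED25, 0 were called against DMSO at any time, with medians from -0.04 to 0.22.

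Among 7 MYC and JAM factors, MYC2, the main target of JAZ repression, was higher with AMF1β at 6 h. It had 79.4, 63.1 and 82.4 FPKM with AMF1β, 60.0, 36.6 and 53.7 with ABA, and 46.4, 55.6 and 65.6 with AMF4, against 52.0, 30.7 and 18.6 with DMSO. The log2 fold change was 1.23 with AMF1β (SE 0.26, limma adjusted p = 0.00241), 0.81 with AMF4 (adjusted p = 0.0250, short of the fold threshold) and 0.64 with ABA (adjusted p = 0.0901). MYC5, a flower-associated relative, was higher at 6 h with AMF1β (1.17) and AMF4 (1.23), and MYC4 was lower at 24 h with AMF4 (-1.06). MYC2 also had interactions between 24 and 6 h of -1.48 with AMF1β (adjusted p = 0.0461) and -1.44 with AMF4 (adjusted p = 0.0270).

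Output genes of jasmonate signalling were listed for the MYC and ERF branches. At 6 h VSP1 and VSP2, vegetative storage proteins, and CORI3, a coronatine-induced gene, were higher with each compound, and TAT3, the last of the 4 MYC branch genes, was not called. VSP2 had 812.8, 825.0 and 850.6 FPKM with ABA, 204.7, 1262 and 173.0 with AMF1β, and 167.6, 887.8 and 216.0 with AMF4, against 51.6, 2.84 and 23.0 with DMSO. On the log2 scale VSP2 differed by 5.62 with ABA, 4.40 with AMF1β and 4.24 with AMF4. Of the 6 ERF branch genes, those called lower at 6 h numbered 5 (ABA), 2 (AMF1β) and 3 (AMF4), and at 24 h they numbered 3, 2 and 3. ERF1, a transcription factor of this branch, was not called at 6 h, with log2 fold changes of -0.0034 for ABA, 0.43 for AMF1β and 0.75 for AMF4. PDF1.2A, a plant defensin, had 8.97, 5.04 and 7.62 FPKM with ABA at 6 h, against 305.7, 145.8 and 248.2 with DMSO (log2 fold change -4.80, SE 0.68, limma adjusted p = 5.17e-05). ORA59, the transcription factor upstream of it, was lower at 6 h with all 3 compounds, and the log2 fold changes for ABA, AMF1β and AMF4 were -2.14, -1.60 and -1.32. PDF1.2A, PDF1.2B and PDF1.2C are near-identical copies, so the split of reads among them is uncertain.

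Of 9 tested genes that break down jasmonate, those higher at 6 h numbered 6 for ABA, 3 for AMF1β and 2 for AMF4. JOX2, a jasmonate oxidase, had 135.2, 48.0 and 87.6 FPKM with ABA, 27.5, 66.6 and 22.2 with AMF1β, and 16.5, 30.1 and 22.1 with AMF4, against 15.5, 11.2 and 4.82 with DMSO, log2 fold changes of 2.99, 1.75 and 1.14. JOX3, JOX4, the hydroxylase CYP94B3, the sulfotransferase ST2A and the amidohydrolase ILL6 were the others with ABA. With AMF1β the others were ILL6 and IAR3, also an amidohydrolase, and with AMF4 the other was JOX3. Of 13 tested genes of jasmonate synthesis, those higher at 6 h numbered 2 for ABA, 3 for AMF1β and 2 for AMF4, LOX2 and ACX1 with all 3 and AOC1 with AMF1β. At 24 h 6 were lower with AMF4, and none was called for ABA or AMF1β. These were LOX2, LOX3, LOX4, AOC3, OPR3 and OPCL1, with log2 fold changes from -1.74 to -1.24. OPR3, a reductase of the pathway, had 15.3 and 14.7 FPKM with AMF4 at 24 h, against 46.4, 46.3 and 33.5 with DMSO. These lists were counted beside the shares of all genes called that are given above and were not tested as sets.

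Of 4 genes that report on ABA signalling, HAI1, RD29B and RAB18 were higher with each compound at 6 h, and NCED3 was not called. HAI1, a protein phosphatase that restrains ABA signalling, differed from DMSO at 6 h by 4.06 (ABA), 2.85 (AMF1β) and 3.79 (AMF4) on the log2 scale. At 24 h RAB18 was called higher for ABA, RAB18 and HAI1 for AMF1β, RAB18, HAI1 and RD29B for AMF4, and at 72 h RAB18 and HAI1 for AMF4.

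The mean profile of the JAZ genes was compared with all other tested genes. The mean z-score of the 8 tested members over the 12 groups ran, at 6, 24 and 72 h, through 0.456, -0.666 and 0.822 with ABA, 0.850, -0.0811 and 0.655 with AMF1β, -0.173, -0.558 and 0.315 with AMF4, and -1.03, 0.535 and -1.12 with DMSO. DMSO thus stood apart by its middle time being the highest, while with each compound the middle time was the lowest. Among the members, JAZ5 (r = 0.896) and JAZ2 (r = 0.874) followed this mean most closely over the 12 groups, and JAZ6 (r = 0.504) and JAZ1 (r = 0.552) least. The mean includes each member, which raises its r, so these values cannot be set beside those of other genes.

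The 10 genes with the most similar profile by Pearson's r over the 12 group means, listed by their r, were AT4G36530 (0.887), ACD2 (0.783), FTSH2 (0.779), ILL6 (0.768), MYC2 (0.766), AT1G70518 (0.762), AT5G53310 (0.760), RTE1 (0.750), MAK3 (0.732) and ANN3 (0.719). These r values are a description over points that share libraries, with no p. Over the 29 libraries in place of the group means, 4 of the 10 remained among the closest 10, and MYC2 came first with r = 0.819. MYC2 ran from 18.6 FPKM in DMSO 6 h replicate 3 to 88.8 FPKM, and the JAZ mean was lowest in the same DMSO library.

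**Figure D4:**
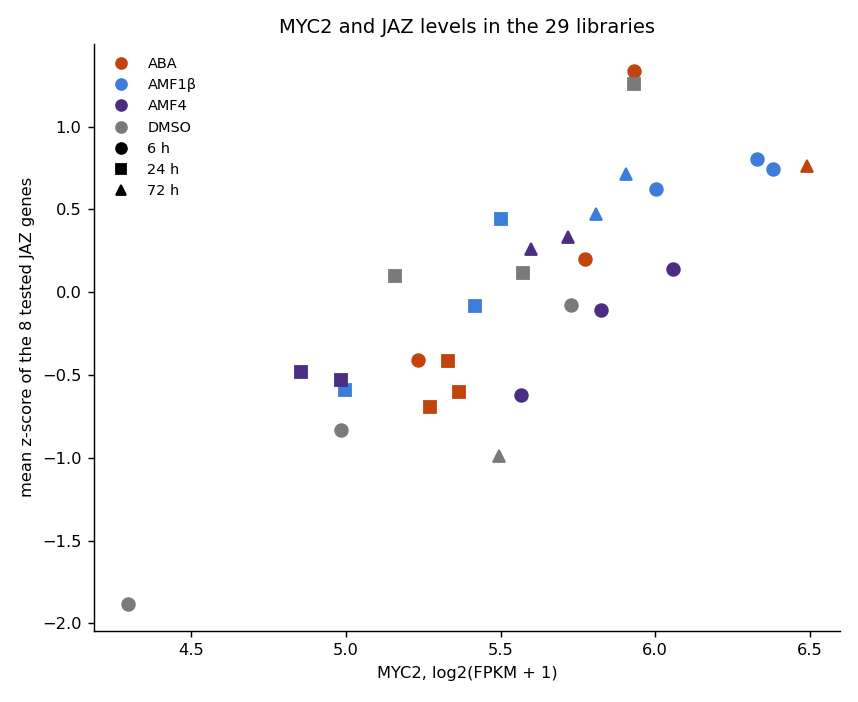
Mean z-score of the 8 tested JAZ genes on the vertical axis against MYC2 as log2(FPKM + 1) on the horizontal axis. Each point is 1 of the 29 libraries, coloured by treatment, with circles for 6 h, squares for 24 h and triangles for 72 h. Libraries with more MYC2 had higher JAZ values (r = 0.819), and the lowest point is a DMSO library of 6 h with 18.6 FPKM of MYC2.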

How the data were processed

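Leaf RNA was sequenced on an Illumina instrument. The authors mapped the reads with TopHat on the TAIR10 genome, and the deposited FPKM values come from their Cufflinks run (versions: not given in the sources used here). Where the paper names biological replicates in duplicate, the deposited table has 1 to 3 libraries a group, and none was dropped. FPKM hold no read totals, so no counting error is given.

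Deposited FPKM were turned into log2(FPKM + 1), and limma 3.58.1 in R 4.3.3 was fitted to 18521 genes, each with 1 FPKM or more in 2 of the 29 libraries. The model had a mean for each of 12 groups, empirical Bayes moderation with a trend, 17 residual and 3.82 prior degrees of freedom, and two-sided tests. Adjusted p is by the Benjamini-Hochberg method within each of 32 comparisons, which were 9 with DMSO, 9 between compounds, 8 between times and 6 interactions. The fit was tested on simulated data. Genes named are the 10 JAZ genes, called members of the lists of jasmonate, ABA, touch and clock genes, and the 10 genes with the highest r to the JAZ mean profile. The members and lists were chosen with earlier results of these data known. Sequences are from RefSeq TAIR10.1, and all 10 genes were matched by locus ID. Alternatives tried were another pseudocount, 2 other filters, 2 scalings, a fit per time, no trend, a replicate block, another 72 h control and leaving out libraries.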

Additional observations from a re-analysis of the deposited data

Results flagged for a closer look

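For 8 interactions the difference of a JAZ gene from DMSO was not the same at 24 h and at 6 h by a test of that difference (limma, adjusted p under 0.05 and a fold of the difference below 0.5). On the log2 scale the 24 h difference minus the 6 h difference with ABA was -1.80 for JAZ1, -1.58 for JAZ5, -1.87 for JAZ7 and -2.66 for JAZ10. With AMF1β it was -1.80 for JAZ5 and -1.14 for JAZ6, and with AMF4 it was -1.70 for JAZ5 and -1.05 for JAZ6. The 3 compounds share the same 6 DMSO libraries. No group held more than 3 libraries, so single libraries were not screened for distance from their group.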

How the results depend on the processing

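Of 22 calls of single JAZ genes, 9 were kept under every alternative, and of 380 values of these calls under alternatives 264 kept the call, 116 lost it and 0 changed sign. Deviations of treated and DMSO libraries with the same replicate number had correlations of -0.253 to 0.230, over 0.1 in 5 of 17 pairs. Pairs with different numbers reached 0.422. Deviations within a group sum to 0, so these values depend on each other and cannot decide whether libraries were paired. With the replicate block the number of JAZ genes called in the AMF1β interaction of 24 minus 6 h was 0 in place of 2, and no other count moved by over 1.5 times.

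The number of JAZ genes called moved under the alternatives that follow. Counts without DMSO 6 h replicates 1 and 2 are not given, since that fit keeps only the library with the lowest JAZ sum. At 6 h the number was 1 with AMF4 (in place of 0) on log2(FPKM + 0.1). In place of 4 with AMF1β, it was 2 with no filter, 1 in a fit to the 6 h libraries and 1 without AMF4 6 h replicate 1 and DMSO 6 h replicate 3 together. It was 2 with AMF4 at 24 h in a fit to that time, and 1 for AMF4 against ABA at 6 h with median-of-ratios scaling and with quantile normalization. Between 24 and 6 h it was 5 with DMSO on log2(FPKM + 0.1) and 0 with AMF1β with no filter. Between 72 and 24 h with AMF4 it was 0 after quantile normalization. For the interactions of 24 minus 6 h it was, for ABA, AMF1β and AMF4 in turn, 1, 0 and 1 with no filter, 1, 0 and 0 without AMF4 6 h replicate 1 and DMSO 6 h replicate 3, and 1, 0 and 0 without DMSO 24 h replicate 2 and AMF1β 24 h replicate 1. In these interactions it was 1 for AMF4 with either scaling. Leaving out DMSO 6 h replicates 1 and 2, or DMSO 24 h replicate 2 and AMF1β 24 h replicate 1, was decided after seeing the data, and the first leaves DMSO replicate 3 as the only control at 6 h. No filter tests more genes, and leaving out libraries leaves fewer degrees of freedom. Otherwise the cause was not tested.

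Leaving out 1 library, the number called ran from 1 to 2 with ABA, 1 to 5 with AMF1β and 0 to 0 with AMF4 at 6 h, and 1 to 1 with AMF4 at 24 h. It ran from 0 to 1 for AMF4 against ABA at 6 h. Between 24 and 6 h it ran from 2 to 4 with DMSO, 2 to 3 with ABA and 0 to 1 with AMF1β, and between 72 and 24 h from 0 to 1 with AMF4. For the interactions of 24 minus 6 h it ran from 1 to 5 with ABA, 0 to 3 with AMF1β and 0 to 3 with AMF4.

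Under median-of-ratios scaling, group means of JAZ levels moved by less than the group's SD in 98 of 100 cases, the 20 levels of single libraries having no SD of their own, and scaling moved the median of all genes by at most 0.09 on the log2 scale in these comparisons. The 72 h comparisons rest on 1 DMSO library, JAZ4 and JAZ8 are too low to test, and FPKM give no read counts, so differences in genes near 1 FPKM are the least secure.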

Other observations

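JAZ genes varied together among libraries of the same group. Over the 27 libraries in groups of 2 or 3, deviations from the group mean had a correlation above 0 in 28 of 28 pairs of tested JAZ genes, with a median of 0.523. The share over pairs of all tested genes was not computed, so these values do not set JAZ genes apart from other genes. Over all 29 libraries, where treatment and time add to these deviations, r of a pair ran from -0.225 to 0.785 with a median of 0.508. Deviations of MYC2 followed those of the JAZ mean with r = 0.877 in the same 27 libraries, those of LHY with r = 0.617, WRKY40 with 0.554, CCA1 with 0.401 and ZAT10 with 0.360. LHY was spread widely in the DMSO libraries of 6 h, from 0.436 to 27.9 FPKM. Over all 29 libraries r with the JAZ mean was -0.0026 for LHY, 0.0349 for CCA1, 0.460 for WRKY40 and 0.457 for ZAT10. These values describe points that share depth and handling and carry no p. Among genes outside the JAZ lists, GES, the geranyllinalool synthase that makes a volatile homoterpene precursor, came next after MYC2 over the 29 libraries (r = 0.744), followed by ILL6, a jasmonate amidohydrolase (r = 0.729).

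DMSO 24 h replicate 2 had the highest value of its group for 8 of the 10 JAZ genes, the exceptions being JAZ9 and JAZ10. JAZ1 had 17.9, 46.9 and 16.3 FPKM in the 3 DMSO libraries of 24 h, and JAZ7 had 1.27, 3.75 and 1.87 FPKM.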
